A study of Homo sapiens with 32 samples.

Results

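Knockout of IGF2BP3 was set directly against knockout of its relative IGF2BP2 in unstressed HCT116 cells, a human colorectal carcinoma line. The comparison used 12 of the 32 libraries of the series, 6 from IGF2BP3 knockout and 6 from IGF2BP2 knockout, all titled as controls and so treated with vehicle (DMSO, 1:1000 in the labels). Libraries were chosen by title, not by any measured value. Every cell, parental and knockout alike, carried a doxycycline-inducible OsTIR1 transgene, the plant F-box protein used in auxin-induced degradation. IGF2BP3 knockout was represented by clones A3, E4 and D12 and IGF2BP2 knockout by clones B7, F6 and G6. Each clone was grown from 1 sorted cell after transient transfection of a plasmid for Cas9, a guide and GFP, and each gave 2 libraries, numbered replicate 1 and replicate 2. Parental cells, 2 samples with 2 DMSO libraries each, are given as reference levels and did not enter the fit. The same 6 clones were also treated with tunicamycin, which blocks N-linked glycosylation (5 µg/mL for 4 h in the labels, which name these values and the DMSO dilution for IGF2BP3 knockout clones and parental cells). Nothing states that the libraries of a clone came from separate cultures, so the p-values measure the spread between these libraries.

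IGF2BP proteins (also called IMPs) are cytoplasmic RNA-binding proteins with RRM and KH domains. They are known to bind mRNAs, many carrying the m6A modification, and to affect their stability, localization and translation. The paralogs IGF2BP1 and IGF2BP3 are typical of embryonic and tumour tissue, and IGF2BP2 is expressed more widely in adults. HMGA2 mRNA, which encodes a chromatin protein that bends DNA, is among the transcripts reported as bound by the family in other cells.

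The designed guides are shown because each genotype rests on a pair of them and because the cut sites differ in their place along the gene. Each line gives the protospacer in lower case and the PAM, the motif Cas9 needs beside its target, in capitals, 5′ to 3′. All were matched to GENCODE release 29 transcripts on GRCh38, and all lie antisense to their gene in coding sequence.
IGF2BP3, clones A3 and E4: tggcaccgactgatagagctGGG
IGF2BP3, clone D12: acgcgtagccagtcttcaccAGG
IGF2BP2, clones B7 and F6: gagctgccggaggtcgtcggCGG
IGF2BP2, clone G6: aggcgtagccggacttcagcAGG
The guide of A3 and E4 matched chr7:23319200-23319219, exon 11 of 15 of IGF2BP3. Its predicted cut lies at codon 414 of 579, with 71.3% of the codons before it. The guide of D12 matched chr7:23469990-23470009 in exon 1, with the cut at codon 35. Both IGF2BP2 guides fell in exon 1 of 16, at chr3:185824895-185824914 (B7 and F6, codon 17 of 599) and chr3:185824837-185824856 (G6, codon 36). The resulting alleles were not analysed here.

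Transcripts of both targeted genes were lower in the genotype that targeted them, without being lost. IGF2BP2 (ENSG00000073792_16, chromosome 3 from 185643739 to 185825056) was measured at 82.3 and 81.5 CPM in clone B7, 92.8 and 90.5 CPM in clone F6 and 89.6 and 81.3 CPM in clone G6. In the IGF2BP3 knockout it stood at 183 and 158 CPM in clone A3, 168 and 151 CPM in clone E4 and 182 and 164 CPM in clone D12. The genotypes did not overlap, and the IGF2BP3 knockout libraries overlapped the parental range of 159 to 195 CPM. CPM are counts scaled to a common library size with TMM factors. Differences were tested with edgeR (quasi-likelihood fit, replicate number as a term, p adjusted by Benjamini-Hochberg over all tested genes), and a gene was called at an adjusted p below 0.05. Fold changes are always IGF2BP3 knockout over IGF2BP2 knockout, on the log2 scale. Each SE was derived from the edgeR test, as the absolute log2 fold change over the square root of the F statistic. That test takes the libraries of a clone as independent. IGF2BP2 differed by 0.95 (SE 0.0461) at an edgeR adjusted p of 1.20e-07, and it was called under every alternative (adjusted p from 1.23e-74 to 0.00438).

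IGF2BP3 (ENSG00000136231_14, chromosome 7 from 23310209 to 23470467) was measured at 18.7 and 23.9 CPM in clone A3, 19.7 and 20.7 CPM in clone E4 and 41.1 and 41.8 CPM in clone D12. In the IGF2BP2 knockout it stood at 69.1 and 61.9 CPM in clone B7, 72.1 and 65.3 CPM in clone F6 and 101 and 88.6 CPM in clone G6. Clone D12, targeted in exon 1, held more of the transcript than A3 and E4, targeted in exon 11, but still lay below every IGF2BP2 knockout library. The parental libraries ranged from 70.1 to 82.8 CPM. IGF2BP3 fell by 1.47 on the log2 scale (SE 0.214) at an edgeR adjusted p of 0.00899, which was 0.055 without clone E4. Its alternatives spanned adjusted p values from 3.73e-106 to 0.432. The third paralog, IGF2BP1, was close to the detection limit in both genotypes: 7 to 15 counts (0.309 to 0.655 CPM) in IGF2BP3 knockout libraries and 2 to 11 counts (0.0911 to 0.517 CPM) in IGF2BP2 knockout libraries, and it was not tested.

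**Figure D1:**
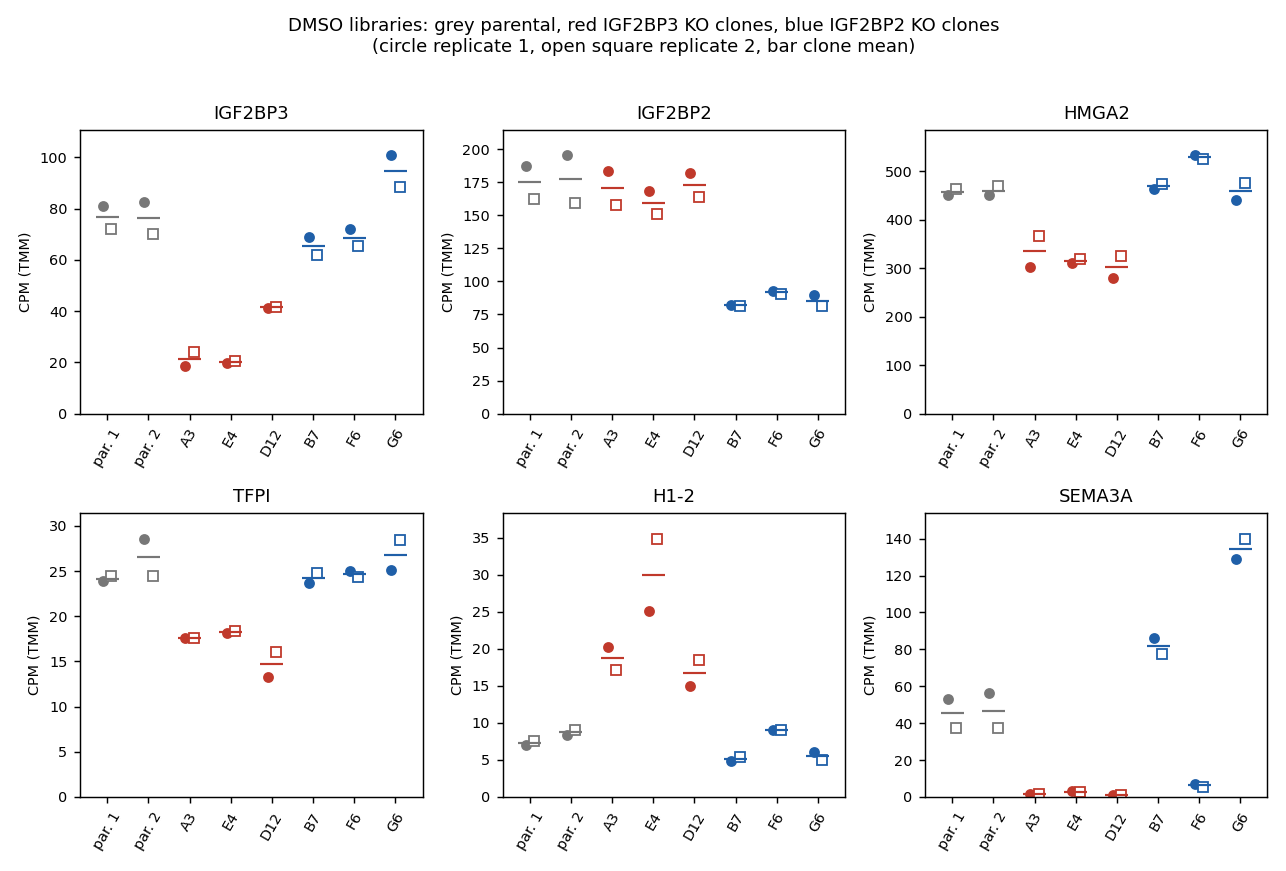
Level in CPM (vertical axis, from 0) of 6 genes in the 16 DMSO libraries, by parental sample or clone (horizontal axis); points are libraries and bars are means of 2. IGF2BP2, IGF2BP3, HMGA2, TFPI, H1-2 and SEMA3A each have all IGF2BP3 knockout libraries on one side of all IGF2BP2 knockout libraries, and for SEMA3A clone F6 (6.26 CPM) lies far below B7 and G6.

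In all, 165 of 14250 tested genes differed between the knockouts (1.16%), 84 higher in IGF2BP3 knockout (0.589%) and 81 lower (0.568%). Most differences were small: the median absolute log2 fold change was 0.36 among called genes and 0.09 among all tested genes, and 19 called genes exceeded 1. Of the called genes, 164 had clone means of one genotype all beyond those of the other, against 2094 of all tested genes (14.7%). The calls came from the same libraries, so this share was largely set by the calling. Protein-coding genes made up 161 of the 165. The parental mean lay between the genotype means for 133 called genes (80.6%), against 5353 of all tested genes (37.6%). These shares are not like for like, because calling favoured genes with a wide gap between the genotype means. A wider gap is more likely to hold the parental mean, so no conclusion is drawn from the higher share. The parental mean was nearer to IGF2BP2 knockout for 126 called genes (76.4%), against 7613 of all tested genes (53.4%). The called genes were chosen by the gap between the same genotype means, so no conclusion is drawn from this share either.

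The replicates in this design are 3 clones per genotype, and the 2 libraries of a clone were alike. With the clone as a random effect (limma voom, within-clone correlation 0.438), 22 genes passed (0.154% of those tested), 9 higher and 13 lower in IGF2BP3 knockout, all among the 165. With the counts of each clone summed, only IGF2BP2 passed (1 of 16103 genes, 0.00621%), with 1268 genes at an unadjusted p below 0.05. For a single gene, an exact permutation test of 3 clones against 3 cannot go below 0.1. Over all tested genes, genotype accounted for 13% of the variance in log2 CPM on 1 degree of freedom, clones within a genotype for 45.5% on 4, and the replicate number for 20.6% on 1. The 12 libraries held 19768759 to 23163473 counts. Leaving out 1 clone moved the count of called genes to 25 (E4), 41 (D12), 42 (A3), 60 (B7), 310 (G6) or 439 (F6).

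**Figure D2:**
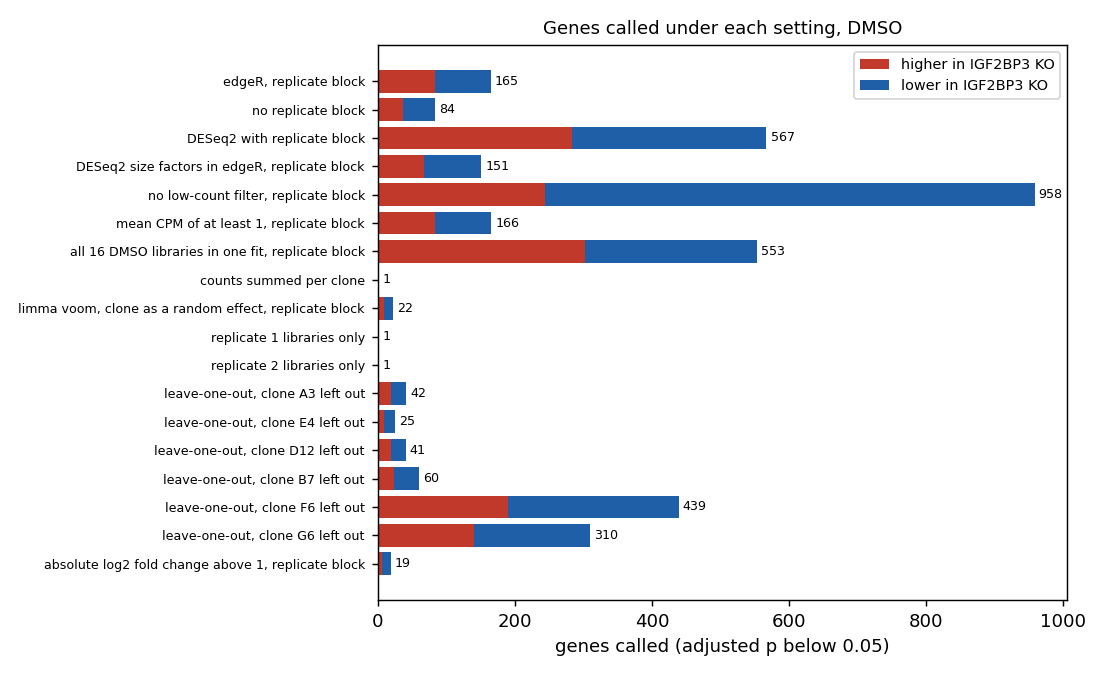
Number of genes called at an adjusted p below 0.05 (horizontal axis) under each setting (vertical axis), stacked by direction. The count was 165 as reported, 22 with the clone as a random effect and 1 with the counts summed per clone.

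HMGA2 (ENSG00000149948_14, chromosome 12 from 65824131 to 65966295) had the lowest adjusted p after IGF2BP2, both by edgeR and with the clone as a random effect. It was measured at 302 and 367 CPM in clone A3, 310.2 and 319 CPM in clone E4 and 280.0 and 326 CPM in clone D12. In the IGF2BP2 knockout it stood at 463 and 474 CPM in clone B7, 533 and 526 CPM in clone F6 and 441 and 476 CPM in clone G6. The highest IGF2BP3 knockout library lay below the lowest IGF2BP2 knockout library, and the parental libraries (452 to 468 CPM) lay within the IGF2BP2 knockout range. HMGA2 fell by 0.62 on the log2 scale (SE 0.0598, adjusted p 4.79e-04 by edgeR, 0.00253 with the clone as a random effect in limma). The call held with each clone left out, and its adjusted p lay between 1.09e-31 and 0.284 over all alternatives. HMGA2 was the only one of 19 tested mRNAs from a list reported as bound by IGF2BP proteins elsewhere to be called, where 1.16% of all tested genes were. Of the 19, 10 had a positive and 9 a negative log2 fold change, with a median of 0.01.

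SEMA3A and SLC1A1 were among the 12 largest decreases in IGF2BP3 knockout that met the naming rule (a symbol, a mean count of at least 100, clone means that did not overlap). SEMA3A, a secreted semaphorin that repels axons and acts on endothelial cells, was measured at 1.35 and 1.5 CPM in clone A3, 3.1 and 2.71 CPM in clone E4 and 0.891 and 0.806 CPM in clone D12. In the IGF2BP2 knockout it stood at 85.9 and 77.7 CPM in clone B7, 6.91 and 5.62 CPM in clone F6 and 129 and 140.0 CPM in clone G6. Every IGF2BP3 knockout library was lower, but clone F6 was also far below the parental libraries (37.2 to 56.1 CPM) while B7 and G6 were above them. SEMA3A had a log2 difference of -5.42, SE 0.817, edgeR adjusted p 0.010, but the adjusted p was 0.386 with the clone as a random effect in limma. The edgeR call was lost without A3 (0.0683), E4 (0.055) or D12 (0.0663). SEMA3A was the 1 called gene of 24 tested semaphorins, plexins and neuropilins, where 1.16% of all tested genes were called. The median log2 fold change of the 24 was -0.05.

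SLC1A1, the neuronal and epithelial glutamate transporter EAAC1, had clone means of 4.13 CPM in A3, 2.76 CPM in E4 and 3.06 CPM in D12, against 7.17 CPM in B7, 14.9 CPM in F6 and 8.35 CPM in G6. F6 was the high clone, and no library of one genotype reached the other. SLC1A1 fell by 1.61 on the log2 scale (SE 0.226, adjusted p 0.00804 by edgeR, 0.0315 with the clone as a random effect in limma). Its edgeR call was lost without E4 (0.055). It was the 1 called gene of 17 tested glutamate and amino acid transporters, where 1.16% of all tested genes were called. The median log2 fold change of the 17 was -0.05.

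THBS1, which encodes the matrix glycoprotein thrombospondin-1, averaged 51.6 ± 13.7 CPM (SD, n = 6) in IGF2BP3 knockout and 103 ± 19 CPM (SD, n = 6) in IGF2BP2 knockout. The libraries ran from 35.5 to 71.4 CPM and from 81.2 to 130.3 CPM without overlap. THBS1 had a log2 difference of -1.01, SE 0.159, edgeR adjusted p 0.0111, called also with the clone as a random effect (0.0417) and lost without D12 (0.0641). FOXO1, a forkhead factor restrained by insulin signalling, averaged 8.35 ± 0.924 CPM (SD, n = 6) against 13.6 ± 1.63 CPM (SD, n = 6). The parental mean of 10 ± 0.853 CPM (SD, n = 4) lay between them. FOXO1 had a log2 difference of -0.70, SE 0.0974, edgeR adjusted p 0.00804 (0.0336 with the clone as a random effect in limma), and the call held with each clone left out. SIPA1L2, of a family of Rap GTPase-activating proteins, averaged 13.6 ± 5.24 CPM (SD, n = 6) against 25.1 ± 3.04 CPM (SD, n = 6), with clone D12 (23.7 and 15 CPM) above A3 and E4. SIPA1L2 had a log2 difference of -0.89, SE 0.164, edgeR adjusted p 0.022 (0.0385 with the clone as a random effect in limma), lost without A3 (0.0994), E4 (0.104) or B7 (0.0757).

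Further genes of the 12 largest decreases were called by edgeR but not with the clone as a random effect. MERTK, a receptor tyrosine kinase for the uptake of dying cells, averaged 8.07 ± 0.782 CPM (SD, n = 6) against 13.3 ± 2.39 CPM (SD, n = 6) without overlap (log2 difference of -0.72, SE 0.115, edgeR adjusted p 0.0111). Its call was lost without A3 (0.0726), E4 (0.0562) or D12 (0.0506). PKIB, an inhibitor of protein kinase A, had clone means of 6.45 CPM in A3, 3.57 CPM in E4 and 4.55 CPM in D12, against 8.46 CPM in B7, 13.4 CPM in F6 and 14.9 CPM in G6, and single libraries overlapped (log2 difference of -1.29, SE 0.236, edgeR adjusted p 0.021). Its call was lost without E4 (0.104) or D12 (0.0921). NUAK2, an AMPK-related kinase, had clone means of 4.57 CPM in A3, 4.84 CPM in E4 and 5.89 CPM in D12, against 9.46 CPM in B7, 9.89 CPM in F6 and 6.46 CPM in G6. NUAK2 in IGF2BP3 knockout was near the parental 5.6 ± 0.511 CPM (SD, n = 4) (log2 difference of -0.75, SE 0.147, edgeR adjusted p 0.0296), and the call was lost without A3 (0.117), E4 (0.133), D12 (0.0663) or B7 (0.0943). AADACP1 is an annotated pseudogene, so reads may have been divided with its parent gene, and it averaged 5.18 ± 0.657 CPM (SD, n = 6) against 9.3 ± 2.75 CPM (SD, n = 6) (log2 difference of -0.85, SE 0.179, edgeR adjusted p 0.0391). Its call was lost without A3 (0.142), E4 (0.104), D12 (0.139), B7 (0.0643) or G6 (0.0579). SAMD12, also among them, is described with chromosome 8.

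Further genes, with smaller differences, passed with the clone as a random effect. Lower in IGF2BP3 knockout was TFPI, the inhibitor of tissue factor that opens blood clotting, measured at 17.6 and 17.6 CPM in clone A3, 18.1 and 18.3 CPM in clone E4 and 13.3 and 16 CPM in clone D12. In the IGF2BP2 knockout TFPI stood at 23.7 and 24.8 CPM in clone B7, 25.1 and 24.4 CPM in clone F6 and 25.2 and 28.4 CPM in clone G6. The IGF2BP2 knockout and parental libraries (23.9 to 28.6 CPM) overlapped, and all IGF2BP3 knockout libraries lay below both. TFPI fell by 0.59 on the log2 scale (SE 0.0774, adjusted p 0.00747 by edgeR, 0.0245 with the clone as a random effect in limma), and the call held with each clone left out. NEO1, the netrin and RGM receptor neogenin, averaged 32.3 ± 5.36 CPM (SD, n = 6) against 49.9 ± 7.87 CPM (SD, n = 6), a log2 difference of -0.63, lost without E4 (0.104), D12 (0.097) or B7 (0.0715). LPP, a LIM protein of focal adhesions, averaged 49.2 ± 6.25 CPM (SD, n = 6) against 66.7 ± 5.78 CPM (SD, n = 6), a log2 difference of -0.44, lost without D12 (0.0663). NFKB2, the precursor of the p52 subunit of NF-κB, averaged 74.5 ± 3.04 CPM (SD, n = 6) against 102 ± 13.4 CPM (SD, n = 6), a log2 difference of -0.45, lost without A3 (0.0595), E4 (0.055) or D12 (0.0569). The sodium/proton exchanger SLC9A2 (log2 fold change -1.47, lost without E4 (0.0547), D12 (0.0894) or B7 (0.076)) and SH3BGRL2 (-0.61, lost without A3 (0.0643) or E4 (0.055)) were lower as well. DENND3, an exchange factor for Rab12, completed the 13 lower genes, with 16.2 ± 1.72 CPM (SD, n = 6) against 24.5 ± 1.84 CPM (SD, n = 6) (-0.60), and its call held with each clone left out.

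By the same naming rule, the 3 largest increases were in the histone genes H1-2, H2AC6 and H2BC12. H1-2, a linker histone, was measured at 20.3 and 17.1 CPM in clone A3, 25.1 and 34.9 CPM in clone E4 and 15 and 18.5 CPM in clone D12. In the IGF2BP2 knockout it stood at 4.81 and 5.33 CPM in clone B7, 9.02 and 9.01 CPM in clone F6 and 6.01 and 4.95 CPM in clone G6. Clone E4 was highest, and the parental libraries (7.01 to 9.07 CPM) lay below every IGF2BP3 knockout library. H1-2 had a log2 difference of 1.74, SE 0.224, edgeR adjusted p 0.0074 (0.0235 with the clone as a random effect in limma), and the call held with each clone left out. H2AC6 had clone means of 7.38 CPM in A3, 11.3 CPM in E4 and 5.83 CPM in D12, against 2.54 CPM in B7, 4.62 CPM in F6 and 2.75 CPM in G6 (log2 difference of 1.31, SE 0.235, edgeR adjusted p 0.0209). H2BC12 had clone means of 17 CPM in A3, 22.5 CPM in E4 and 11.2 CPM in D12, against 4.74 CPM in B7, 9.56 CPM in F6 and 6.47 CPM in G6, and a D12 library overlapped F6 (log2 difference of 1.28, SE 0.234, edgeR adjusted p 0.021). H4C9 was low at 3.64 ± 0.513 CPM (SD, n = 6) against 2.0 ± 0.38 CPM (SD, n = 6) (log2 difference of 0.86, SE 0.15, edgeR adjusted p 0.0201). None of H2AC6, H2BC12 and H4C9 passed with the clone as a random effect (0.0643, 0.054 and 0.101 in limma), and each lost its edgeR call without A3, E4 or B7, with adjusted p from 0.0683 to 0.109.

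Of 50 linker and replication-dependent histone genes listed, 16 passed the filter on low counts, and 4 were called, all higher in IGF2BP3 knockout, where 0.589% of all tested genes were called higher. A positive log2 fold change was found for 13 of the 16 (median 0.72) and for 49.4% of all tested genes. Summed over the list, the IGF2BP3 knockout libraries held 271 to 348 CPM and the IGF2BP2 knockout libraries 204 to 323 CPM, so the sums overlapped. Replication-dependent histone mRNAs typically end in a stem-loop instead of a poly(A) tail, and these libraries were poly(A)-selected. The values therefore describe polyadenylated histone RNA, and near-identical gene copies may have divided reads. H2AX, a histone variant marked at DNA breaks, averaged 274 ± 17 CPM (SD, n = 6) against 224 ± 16.8 CPM (SD, n = 6) (log2 difference of 0.29, SE 0.041, edgeR adjusted p 0.00804, 0.0417 with the clone as a random effect in limma). It was called with each clone left out.

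Genes of DNA replication and mitosis were measured beside the histones. Of 32 tested, 3 were called, all higher in IGF2BP3 knockout, against 0.589% of all tested genes. A positive log2 fold change was found for 24 of the 32 (median 0.08), against 49.4% of all tested genes. PLK1, a mitotic kinase, averaged 167 ± 8.29 CPM (SD, n = 6) against 138 ± 6.4 CPM (SD, n = 6) without overlap (log2 difference of 0.27, SE 0.0421, edgeR adjusted p 0.0111), and its call was lost without E4 (0.055). AURKA, another mitotic kinase, averaged 112 ± 9.22 CPM (SD, n = 6) against 95 ± 4.7 CPM (SD, n = 6) (log2 difference of 0.23, SE 0.0518, edgeR adjusted p 0.0473), and was lost without A3 (0.0989), E4 (0.188), D12 (0.085), B7 (0.0922) or F6 (0.0638). CDC6, which loads the replicative helicase, averaged 198 ± 14.9 CPM (SD, n = 6) against 176 ± 8.56 CPM (SD, n = 6) with overlapping libraries (log2 difference of 0.16, SE 0.0357, edgeR adjusted p 0.0473). The CDC6 call was lost with each of the 6 clones left out (adjusted p 0.0517 to 0.163). The voom fit with the clone as a random effect called none of PLK1, AURKA and CDC6 (0.0502, 0.238 and 0.229). UBE2S, the ubiquitin-conjugating enzyme that extends chains for the anaphase-promoting complex, averaged 440.1 ± 41.4 CPM (SD, n = 6) against 342 ± 39.5 CPM (SD, n = 6) (log2 difference of 0.36, SE 0.0562, edgeR adjusted p 0.0111). UBE2S passed with the clone as a random effect (0.0385 in limma) and was lost by edgeR without E4 (0.0547).

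S100A10 and 4 further genes with smaller increases also passed with the clone as a random effect. S100A10, the partner of annexin A2 at the plasma membrane, was measured at 159 and 141 CPM in clone A3, 176 and 173 CPM in clone E4 and 152 and 148 CPM in clone D12. In the IGF2BP2 knockout it stood at 129 and 119.8 CPM in clone B7, 108 and 98.1 CPM in clone F6 and 112 and 93.6 CPM in clone G6. No library of one genotype reached the other, and the parental libraries (115 to 125 CPM) lay within the IGF2BP2 knockout range. S100A10 had a log2 difference of 0.52, SE 0.0745, edgeR adjusted p 0.00804 (0.0245 with the clone as a random effect in limma), and the call held with each clone left out. SDC1, the heparan sulfate proteoglycan syndecan-1, averaged 54.5 ± 3.62 CPM (SD, n = 6) against 40.8 ± 3.3 CPM (SD, n = 6) without overlap, a log2 difference of 0.41, lost without E4 (0.0518) or D12 (0.0506). CCDC85C (0.38, held with each clone left out), ZNF385A (0.46, lost without E4 (0.055) or D12 (0.0506)) and UBALD2 (0.53, lost without A3 (0.0522) or E4 (0.0787)) were the others. The 9 higher genes of that fit were IGF2BP2, H1-2, UBALD2, S100A10, ZNF385A, SDC1, CCDC85C, UBE2S and H2AX.

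The rest of the 12 largest increases were called by edgeR but not with the clone as a random effect. NR1D1, the clock repressor REV-ERBα, averaged 48.5 ± 6.69 CPM (SD, n = 6) against 33.8 ± 4.1 CPM (SD, n = 6) (log2 fold change 0.52, lost without E4 (0.104), D12 (0.0925) or B7 (0.0861)). DIXDC1, a DIX-domain protein of Wnt signalling, averaged 15 ± 1.81 CPM (SD, n = 6) against 9.89 ± 1.64 CPM (SD, n = 6) (log2 fold change 0.60, lost without E4 (0.136), D12 (0.113) or B7 (0.0922)). The tubulin gene TUBA4A (0.53) was lost without A3 (0.0892), E4 (0.055), D12 (0.0974) or B7 (0.0809), and the diacylglycerol kinase gene DGKE (0.52) without E4 (0.119), D12 (0.107) or B7 (0.0819). CPLX1, a complexin of vesicle fusion (0.57), was lost without A3 (0.0983), E4 (0.0824), D12 (0.138), B7 (0.111) or F6 (0.0521), and FAM81A (0.58) without A3 (0.0794), E4 (0.0824), D12 (0.149) or B7 (0.111). TUBA4A, DGKE, NR1D1, FAM81A, IGF2BP3, SLC1A1 and THBS1 are the 7 of the 24 genes named by size that overlap another protein-coding gene in GENCODE release 29, and whether counting used the strand is not given in the sources used here.

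**Figure D3:**
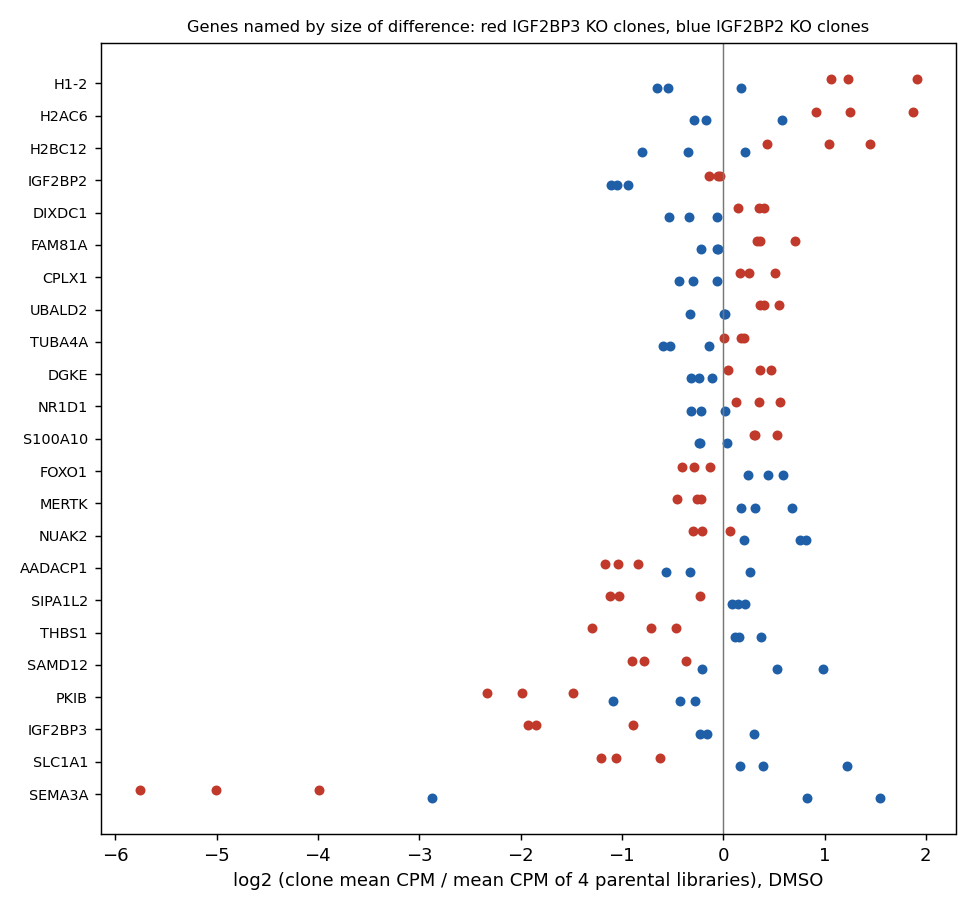
Of the genes named by size, 23 (vertical axis), with the log2 ratio of each clone mean to the mean of 4 parental DMSO libraries (horizontal axis, 0 is the parental level); red points are IGF2BP3 knockout clones and blue points IGF2BP2 knockout clones. The parental level lies between the genotype means for 18 of the 23 genes, and red and blue points of a gene do not overlap, which the naming rule required.

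Other pathway lists had 0 or 1 called gene each, beside 1.16% of all tested genes called. Among ATF6 targets, chaperone genes of the endoplasmic reticulum, 1 of 12 was called: HYOU1, at 208 ± 14.1 CPM (SD, n = 6) against 181 ± 14.1 CPM (SD, n = 6) with overlapping libraries (log2 difference of 0.20, SE 0.0436, edgeR adjusted p 0.0473). HYOU1 was lost without A3 (0.0707), E4 (0.186), D12 (0.158), B7 (0.145) or G6 (0.0527), and 11 of the 12 had a positive log2 fold change (median 0.11), against 49.4% of all tested genes. Among PERK/ATF4 targets 1 of 17 was called, the serine synthesis enzyme PSPH (log2 difference of 0.21, SE 0.0458, edgeR adjusted p 0.0473), lost without A3 (0.12), E4 (0.143), D12 (0.163), B7 (0.134) or F6 (0.0696). Of 15 BMP and TGF-beta pathway genes, FSTL3, a secreted activin inhibitor, was called (log2 difference of 0.43, SE 0.0869, edgeR adjusted p 0.0357), lost without A3 (0.0994), E4 (0.124), B7 (0.0822) or F6 (0.0569). The voom fit with the clone as a random effect called none of HYOU1, PSPH and FSTL3 (0.192, 0.257 and 0.141). The other pathway lists had no gene called by edgeR or with the clone as a random effect in limma. Over all tested genes, 2322 (16.3%) had an unadjusted edgeR p below 0.05 and DESeq2 called 567 (3.98%). In these lists genes with such an unadjusted p numbered 1 of 15 m6A writers, erasers and readers, 3 of 17 IRE1/XBP1 targets, 2 of 19 interferon-stimulated genes, 4 of 12 Wnt targets, 7 of 11 integrin subunits and 0 of 4 clustered protocadherins, and DESeq2 called none of these. They numbered 3 of 20 p53 targets, 3 of 21 cholesterol genes, 2 of 10 laminin chains, 6 of 18 glycolysis genes, 5 of 17 immediate early and AP-1 genes, 2 of 4 cancer-testis antigens and 2 of 13 mitochondrially encoded mRNAs, and DESeq2 called 1 gene in each of these lists.

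Of 12 colon epithelium markers 9 passed the low-count filter, and CDX1, VIL1 and CEACAM5 did not. Of markers of other cells, 0 of 6 immune, 1 of 9 fibroblast and endothelial and 3 of 6 neural genes passed. KRT8 was the highest colon marker tested, at means of 2090 CPM in IGF2BP3 and 2163 CPM in IGF2BP2 knockout. CLDN3 averaged 4.42 and 6.65 CPM, near the fibroblast marker COL1A1 (9.69 and 8.39 CPM) and the neural marker MAP2 (3.54 and 6.08 CPM). Colon epithelium markers summed to 3487 to 4418 CPM in IGF2BP3 knockout and 3117 to 5501 CPM in IGF2BP2 knockout libraries, and CEACAM5 had no count in any of the 12. The tight junction gene CLDN3 was the 1 called of 9 tested, where 1.16% of all tested genes were called. CLDN3 had a log2 difference of -0.59, SE 0.109, edgeR adjusted p 0.023, lost without A3 (0.0983), E4 (0.0644), D12 (0.0799) or B7 (0.0819). Its adjusted p was 0.145 with the clone as a random effect in limma. The 6 immune markers summed to at most 0.57 CPM in any of these libraries, and CD3E was at 0. The 9 fibroblast and endothelial markers summed to 5.45 to 11.7 CPM, with COL1A2 at 0, and the 6 neural markers to 4.02 to 10.2 CPM. Of the 1 fibroblast and endothelial and 3 neural markers tested, edgeR and the random-effect fit called none, 1 had an unadjusted p below 0.05 and DESeq2 called 1. The control libraries of clone G6 carry a tunicamycin entry in the labels against their title. Their level of HSPA5, the chaperone BiP, was 992 and 822 CPM, within the 774 to 1109 CPM of the other 14 DMSO libraries and below the 7917 to 10903 CPM of the 16 tunicamycin libraries. DDIT3 and HERPUD1 also lay within the range of the other 14 and below the tunicamycin libraries. DNAJB9, at 8.16 and 9.02 CPM, lay below the 9.07 to 12 CPM of the other 14 and the 139 to 183 CPM in tunicamycin. Without G6, 310 genes were called, 121 of them among the 165.

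Chromosome 8 stood apart in clone B7, an observation made after the values were seen. Over 358 genes of this chromosome with a parental level above 5 CPM, the median log2 ratio of B7 to parental cells was 0.45 (0.5 CPM added to each level). In the other 5 clones it was -0.05 to 0.02, and over the other autosomes and X it was -0.06 to 0.05 in all 6 clones. Over 16 mitochondrial genes it was 0 to 0.1. In the comparison of knockouts, 490 tested chromosome 8 genes had a median log2 fold change of -0.18, and -0.02 without B7. Of the 490 genes 6 were called (1.22%), near the 1.16% of all tested genes. All 6 were lower in IGF2BP3 knockout, where 0.568% of all tested genes were called lower. B7 had the highest clone mean for 5, and 2 were called without B7. Those 2 were DENND3, given above, and SNTB1, a syntrophin of the dystrophin complex, at 0.632 ± 0.254 CPM (SD, n = 6) against 3.28 ± 1.22 CPM (SD, n = 6) (log2 difference of -2.37, SE 0.327, edgeR adjusted p 0.00804). With the clone as a random effect in limma, SNTB1 had an adjusted p of 0.0544, SAMD12 0.131, EXT1 0.118, TMEM65 0.164 and ZNF7 0.184, so none of them was called in that fit, while DENND3 was. The others were SAMD12 (-1.19, lost without A3 (0.112), E4 (0.136), D12 (0.0663) or B7 (0.0778)), the heparan sulfate polymerase gene EXT1 (-0.61, lost without A3 (0.104), E4 (0.132), D12 (0.104) or B7 (0.0716)), TMEM65 (-0.44, lost without A3 (0.0707), E4 (0.138), D12 (0.132), B7 (0.125) or G6 (0.0548)) and ZNF7 (-0.38, lost without A3 (0.0939), E4 (0.15), D12 (0.168) or B7 (0.114)). SAMD12 had clone means of 4.15 CPM in A3, 3.84 CPM in E4 and 5.56 CPM in D12, against 14.2 CPM in B7, 10.4 CPM in F6 and 6.18 CPM in G6. What part the chromosome 8 level of B7 had in these differences was not tested.

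**Figure D4:**
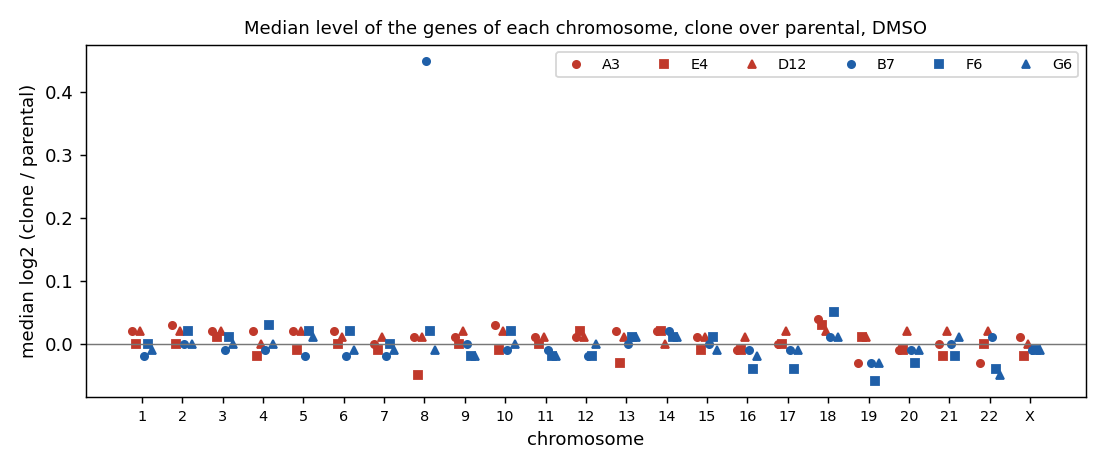
Median log2 ratio of clone to parental DMSO level (vertical axis) over the genes of each chromosome (horizontal axis), 1 symbol per clone; red symbols are IGF2BP3 knockout and blue symbols IGF2BP2 knockout. Clone B7 on chromosome 8, at 0.45, is the 1 plotted value outside -0.06 to 0.05; the mitochondrial genome is not plotted.

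The same contrast in tunicamycin used other libraries of the same clones, so it repeats the measurement within these clones and adds none. There 214 of 14066 genes were called (1.52%), 97 higher and 117 lower in IGF2BP3 knockout. Of the 165 genes called in DMSO, 163 were tested and 162 had the same direction. A total of 91 were called in both with the same direction, 55.2% of the DMSO calls and 42.5% of the tunicamycin calls, and none was called in opposite directions. All 24 genes named by size kept their direction and 19 were called again by edgeR, 10 of them also with the clone as a random effect in limma. That fit called 11 of the 24, the other being SIPA1L2 (adjusted p 0.0421, and 0.0528 by edgeR). Levels of SEMA3A differed by a log2 fold change of -5.47 (SE 0.831), those of H1-2 by 1.77 (SE 0.282) and those of HMGA2 by -0.58 (SE 0.0632). For HMGA2 edgeR gave an adjusted p of 0.00169, and 0.0138 resulted with the clone as a random effect in limma. IGF2BP2 stood apart again (0.71, SE 0.0495, adjusted p 1.21e-05 by edgeR). HYOU1 was not called in tunicamycin (-0.04, SE 0.0393, adjusted p 0.637 by edgeR). The difference between treatments was not tested.

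**Figure D5:**
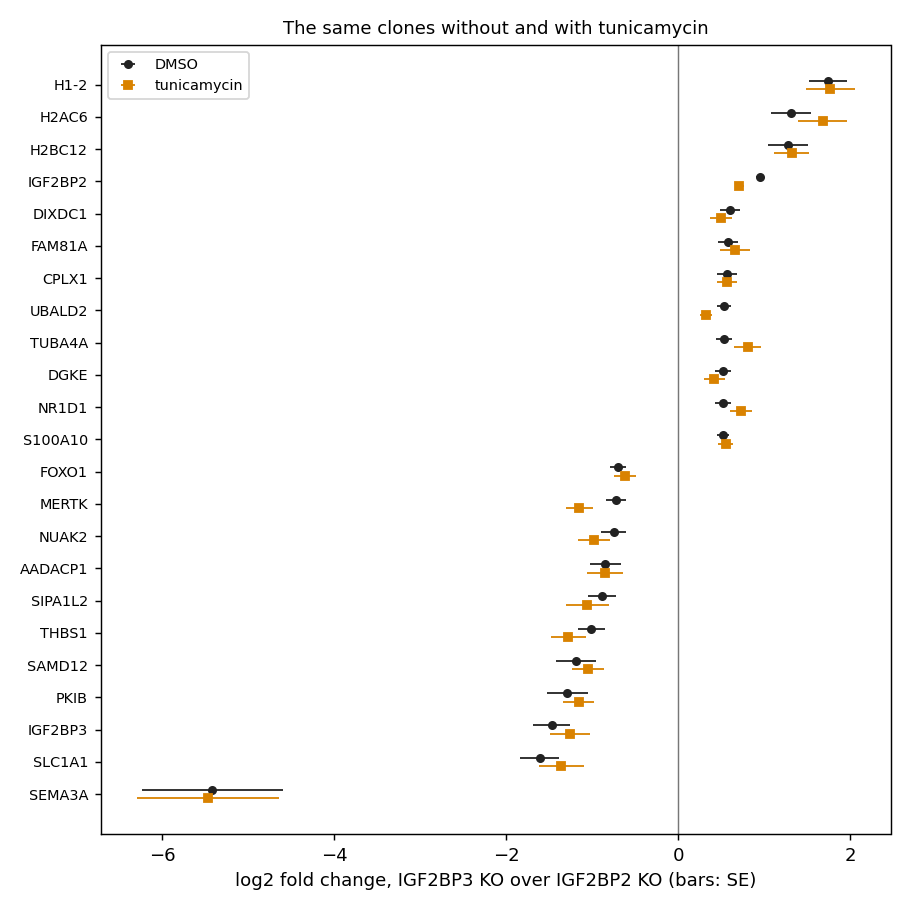
Log2 fold change of IGF2BP3 over IGF2BP2 knockout (horizontal axis, bars are SE) for 23 of the genes named by size (vertical axis), in DMSO (black circles) and tunicamycin (orange squares), from the 6 clones. All 23 pairs lie on the same side of 0.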

How the data were processed

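The authors deposited raw gene-level counts for 32 libraries of poly(A) RNA, made per the labels' protocols with a directional kit and paired reads of 100 bases. The submitters' processing notes name STAR 2.7.5c and hg38. The counting tool, its annotation and its use of strand are not given in the sources used here. Of 60660 identifiers, 42060 had a symbol.

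Groups came from sample titles. Counts of the 12 knockout DMSO libraries were fitted with edgeR 4.0.16 in R 4.3.3 (TMM, filterByExpr, quasi-likelihood test, Benjamini-Hochberg adjustment, threshold 0.05) with the replicate number as a term, and tunicamycin libraries likewise. CPM were TMM-scaled over all 32 libraries. Same-numbered libraries deviated together in all 15 pairs of clones (r 0.161 to 0.509), so the number was treated as a pairing. The 2 libraries of a clone differed by more than counting noise (chi-square per degree of freedom 5.24 to 11.6). Clone-level fits used summed counts or limma 3.58.1 voom with duplicateCorrelation, and DESeq2 1.42.0 was another alternative. The fits were run on simulated counts drawn without clone or replicate effects. That run cannot show how the fits handle the spread between clones. Figures were drawn with matplotlib 3.10.9.

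Named genes were the 12 largest decreases and 12 largest increases among called genes with a symbol, a mean count of at least 100 and clone means that did not overlap, plus the IGF2BP family, genes called in a clone-level fit and genes of 26 lists. Chromosome 8 genes were chosen after their values were seen. The comparison, members and lists were chosen with earlier results of these data known. Positions come from GENCODE release 29 on GRCh38. Of the 24 genes named by size, 1 is counted but not reported here.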

Additional observations from a re-analysis of the deposited data

Results flagged for a closer look

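In 5 of 98 sets of a named gene and a knockout group, each of 6 DMSO libraries, 1 library stood far from the other 5, with a gap to its nearest neighbour above 0.625 of the group's range. For 6 independent values from 1 normal distribution, such a gap arises in about 1 in 20 sets (5%). Each group here is 3 clones with 2 libraries each, so that rate need not hold. SIPA1L2 in replicate 1 of IGF2BP3 knockout clone D12 was at 23.7 CPM, with the next library at 15 CPM. DENND3 in replicate 2 of IGF2BP2 knockout clone B7 was at 28.1 CPM, with the next at 24.4 CPM. TFPI in replicate 2 of clone G6 was at 28.4 CPM, with the next at 25.2 CPM. CPLX1 in replicate 1 of clone G6 was at 8.29 CPM, with the next at 6.16 CPM. FAM81A in replicate 2 of clone B7 was the low one, at 3.4 CPM, with the next at 4.19 CPM.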

How the results depend on the processing

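The number of called genes depended strongly on the setting. It was 165 as reported, 84 with no replicate block, so the paired term moved it by more than 1.5 times, 567 with DESeq2, 958 with no low-count filter, 553 with the 4 parental libraries added to the fit, 19 with an absolute log2 fold change above 1, 22 with the clone as a random effect and 1 with summed counts, replicate 1 libraries alone or replicate 2 libraries alone. With 1 clone left out it ran from 25 to 439. It was 151 with DESeq2's size factors (68 higher, 83 lower) and 166 with a mean CPM of at least 1. With no filter 244 were higher and 714 lower, against 84 and 81. In tunicamycin the count was 214, 55 with no replicate block, 32 with the clone as a random effect, 1 with summed counts, 3 with replicate 1 alone and 1 with replicate 2 alone. The cause of these shifts was not tested. Fits without 1 clone or on 1 replicate alone hold fewer libraries, and the counts without 1 clone lay on both sides of 165. IGF2BP2 was called under every setting run. IGF2BP3 kept its direction and was no longer called with summed counts (log2 fold change -1.47), replicate 1 alone (-1.62) or replicate 2 alone (-1.33), and with 1 clone left out its log2 fold change ran from -1.88 to -1.28, with the call lost without E4. No named gene changed direction under any setting run. Of the 24 genes named by size, 9 were called with the clone as a random effect, 5 without E4, 10 without D12, 12 without A3 or B7, 23 without F6 or G6, and 24 with no replicate block, DESeq2, its size factors or either other filter. In the fit as reported, IGF2BP1 did not pass the low-count filter and was not compared. Some other genes below 1 CPM, such as SEMA3D (means of 0.381 and 0.692 CPM), did pass.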
